A study of Mus musculus with 4 samples.

Results

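Preleptotene cells are male germ cells at the step between the last mitotic divisions of spermatogonia and meiotic prophase. They were selected on measured levels of 7 genes from single-cell RNA sequencing of testes at postnatal day 15. A barcode had to have more than 1000 detected genes and under 10% of its unique molecular identifiers (UMIs) from mitochondrial genes. It also needed at least 10 *Stra8* and at least 3 *Meioc* UMIs per 10000, under 5 per 10000 of *Prdm9*, *Dmc1* and *Meiob* together, and at most 2 UMIs of *Plk1* and *Ccnb1* together. Of 29592 barcodes that passed the first pair of limits, 2406 were preleptotene cells by this rule. They numbered 384 and 376 in wild type replicates 1 and 2, and 1002 and 644 in *Meioc*-null replicates 1 and 2.

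The study asked what MEIOC does as germ cells pass from mitosis to meiosis. Libraries were made from 4 C57BL/6N pups, 2 wild type and 2 homozygous for a *Meioc*-null allele (*Meioc* tm1.1Dpc), with 1 testis per pup. Each of the 2 batches held 1 littermate pair with 1 pup of each genotype. All pups also carried 1 *Hspa2* tm1Dix allele and 2 copies of a *ROSA26*-tdTomato reporter whose stop cassette was intact, so these alleles do not separate the genotypes. The deposited libraries held 11986 to 16486 barcodes and 158291903 to 190455307 UMIs. No preleptotene barcode was shared between libraries, and 12 to 16 kept barcodes were shared between any 2 libraries.

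In the testis, retinoic acid induces *Stra8*, whose protein acts with the product of *Gm4969* (also called *Meiosin* or *Bhmg1*) to switch on meiotic genes. Cells then replicate their DNA a last time and load meiotic cohesins and axis proteins onto chromosomes. MEIOC works on messenger RNA together with its partners YTHDC2, a helicase, and RBM46, and is needed for germ cells to stay in meiotic prophase. *Prdm9*, *Dmc1* and *Meiob* mark the early prophase that follows, while *Plk1* and *Ccnb1* mark cells near mitosis.

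Genes that were higher in wild type included *Gm4969*, the synaptonemal complex gene *Tex12* and the cohesin gene *Stag3*. Their promoters are shown here because the 1 promoter listed for each holds a pair of short motifs. *Syce2*, which has 2 listed promoters, holds both motifs in 1 of them and neither in the other, and is not shown. The sequences are from RefSeq on GRCm38.p6 and run from 250 bases before to 50 after a gene's start in RefSeq. The GENCODE coordinates given below can start elsewhere, and the whole *Stag3* window lies after its GENCODE start. Capitals mark CACGTG, the E-box that MGA with MAX can bind, and GCGGGAA or its reverse complement TTCCCGC, a form of the E2F site. They lie at chr7:19118295-19118594 on the minus strand for *Gm4969*, chr5:138280259-138280558 on the plus strand for *Stag3* and chr9:50561219-50561518 on the minus strand for *Tex12*.
Gm4969: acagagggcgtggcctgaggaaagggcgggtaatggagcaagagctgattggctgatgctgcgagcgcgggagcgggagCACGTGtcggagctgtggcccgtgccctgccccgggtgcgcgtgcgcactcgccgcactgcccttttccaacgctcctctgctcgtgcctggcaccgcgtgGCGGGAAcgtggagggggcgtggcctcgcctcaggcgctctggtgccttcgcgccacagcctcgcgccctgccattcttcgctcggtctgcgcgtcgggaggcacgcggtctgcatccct
Stag3: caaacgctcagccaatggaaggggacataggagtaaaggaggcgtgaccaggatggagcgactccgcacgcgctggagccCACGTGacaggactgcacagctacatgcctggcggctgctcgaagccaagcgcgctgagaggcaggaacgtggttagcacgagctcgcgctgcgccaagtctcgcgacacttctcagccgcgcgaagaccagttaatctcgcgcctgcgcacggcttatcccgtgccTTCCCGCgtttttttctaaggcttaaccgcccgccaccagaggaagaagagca
Tex12: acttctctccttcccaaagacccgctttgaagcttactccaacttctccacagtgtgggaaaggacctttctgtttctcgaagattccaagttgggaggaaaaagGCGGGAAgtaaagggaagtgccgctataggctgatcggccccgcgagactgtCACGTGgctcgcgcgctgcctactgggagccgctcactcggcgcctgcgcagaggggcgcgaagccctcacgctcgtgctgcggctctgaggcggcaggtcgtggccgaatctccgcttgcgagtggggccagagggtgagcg
Of the 16 genes of the meiotic lists that were higher in wild type, 14 had a promoter in the table, of which 4 held CACGTG (28.6%) and 5 held GCGGGAA (35.7%) on either strand. Over all 5116 tested genes with a promoter the shares were 13.5% and 12.2%, and over all 27025 genes of the table they were 8.09% and 5.29%. Among all genes higher in wild type, 13.5% held CACGTG and 11.9% held GCGGGAA, and among those higher in *Meioc*-null the shares were 13.4% and 12.4%. A match describes letters in this window, and binding was not measured.

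Preleptotene cells made up 6.06% and 4.43% of kept barcodes in the wild-type libraries (5.49 to 6.68% and 4.00 to 4.89%, exact binomial 95% intervals). In *Meioc*-null they made up 13.3% and 8.93% (12.5 to 14.1% and 8.28 to 9.61%). The shares averaged 5.24% ± 1.16 and 11.1% ± 3.07 (SD, n = 2), and the *Meioc*-null library had the larger share in both batches. Of barcodes with a *Ddx4* or *Dazl* UMI, which mark germ cells, preleptotene cells were 6.76% and 4.98% (wild type) versus 15.2% and 10.5% in *Meioc*-null. These intervals cover counting error only, and the shares were not tested because the rule itself uses measured genes. The rule dropped more *Meioc*-null cells for *Plk1* and *Ccnb1*, 11.7% and 11.4% of those that passed the other gates, against 2.78% and 2.84% in wild type. Barcodes that passed all gates but not the mitochondrial limit were 9.005% and 6.47% of such barcodes (wild type) versus 15.1% and 10.7% in *Meioc*-null.

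Median depth per preleptotene cell was 11205 and 10620 UMIs (wild type) versus 11376.5 and 12524 UMIs (*Meioc*-null). Summed depth was 4456240 to 12452347 UMIs per library, so the wild-type sums rest on fewer counts. The gates were filled unevenly. Median *Stra8* was 19.0 and 19.0 per 10000 UMIs (wild type) versus 22.9 and 22.7 (*Meioc*-null), and the median of *Prdm9*, *Dmc1* and *Meiob* together was 3.09 and 3.07 against 2.74 and 2.72. Median *Meioc* was 6.25 and 6.72 (wild type) versus 6.41 and 6.34 (*Meioc*-null). The part of these positions within the gates in the genotype differences given below was not tested. Just inside and outside the gates, wild type replicate 1 had *Stra8* values of 10.05 and 9.946, *Meioc* values of 3.009 and 2.996, and *Prdm9*, *Dmc1* and *Meiob* sums of 4.972 and 5.005 per 10000 UMIs.

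All 5 markers of the label had a UMI in at least 25% of wild-type preleptotene cells, and 4 of 5 did in *Meioc*-null. *Stra8* stood at 2015 and 2005 CPM (UMIs per 1000000) in wild type and at 2324 and 2330 CPM in *Meioc*-null, and *Meioc* at 674 and 707 CPM versus 683 and 656 CPM. These values are set by the gates. Whether the 3′ tags of *Meioc* fall within the deletion is not known here, so they do not check the genotype labels. *Gm4969* had a UMI in 59.1% and 63.8% of wild-type and 34.5% and 41.0% of *Meioc*-null preleptotene cells. In barcodes without *Ddx4* or *Dazl* and with at least 5 UMIs of Sertoli markers, at median depths of 4329.5 to 10623 UMIs, this share was 0 to 1.38%. These somatic barcodes also held 9284 to 13026 CPM of peritubular markers, above their 1422 to 3114 CPM of Sertoli markers. *Hist1h2aa*, a histone H2A gene of germ cells, stood at 1650, 2805, 1429 and 2030 CPM in the 4 libraries in the order above, and followed batch more than genotype. *Pparg*, a nuclear receptor gene, stood at 45.4 and 38.8 CPM (wild type) versus 24.7 and 24.6 CPM (*Meioc*-null).

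**Figure D1:**
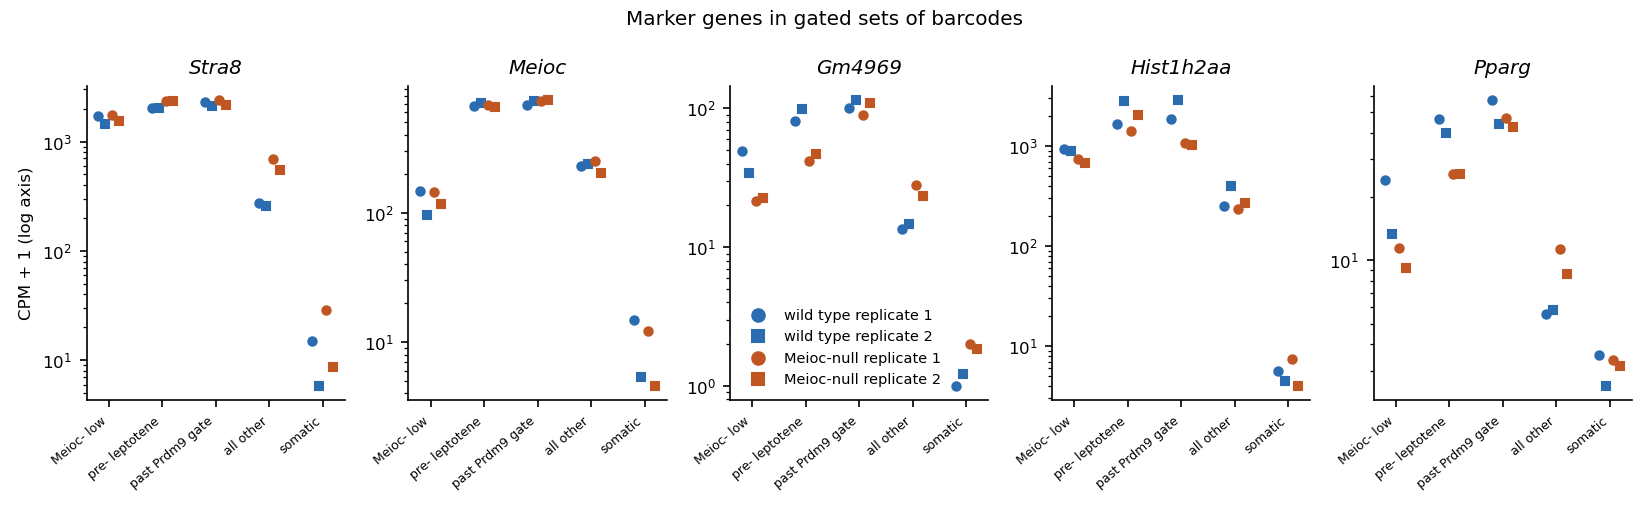
CPM plus 1 (log axis) of the 5 marker genes in each library, in Stra8-positive Meioc-low cells, preleptotene cells, cells past the Prdm9 gate, all other kept barcodes and somatic barcodes. Circles are replicate 1 and squares replicate 2, blue wild type and orange Meioc-null. Gm4969 in preleptotene cells stood at 80.4 and 97.4 CPM in wild type, above 40.6 and 45.9 CPM in Meioc-null.

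Against all other kept wild-type barcodes, among genes with at least 50 CPM in preleptotene cells and as a description only, *Stra8*, whose place the gate on it fixes, had the highest ratio of mean CPM at 7.61, followed by *Hist1h2aa* at 6.83 and *Gm4969* at 6.75. The next were *Tslrn1* (6.64), *Nudt17* (6.25), *M1ap*, needed for male meiosis (6.17), and the linker histone gene *Hist1h1e* (5.88). *Ugt8a*, *Gm773*, the meiotic cohesin gene *Rad21l*, *Hist1h1a*, *Hist1h2ba*, *Sap25*, the S-phase cyclin gene *Ccne2* and *Rbpms2* completed the first 15, with ratios of 4.72 to 5.33. These ratios are to all other barcodes together and do not show a peak in preleptotene cells. The 5 markers of the label summed to 4466 and 5653 CPM in wild-type preleptotene cells and to 5018 and 5892 CPM in wild-type cells past the *Prdm9* gate.

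Somatic markers were low beside those of germ cells. Germ-cell markers summed to 2270 to 2497 CPM in the 4 libraries. Summed Sertoli markers were 59.2 to 127 CPM, Leydig markers 8.23 to 11.8 CPM and macrophage markers 2.02 to 52.4 CPM. Peritubular markers were 80.8, 117, 160 and 22.9 CPM, and *Meioc*-null replicate 1 was highest and replicate 2 lowest. No marker of the Leydig, peritubular or macrophage lists had a UMI in 25% of preleptotene cells. In the Sertoli and endothelium lists 1 marker each did, in both genotypes. Markers of undifferentiated spermatogonia summed to 7.34 to 12.4 CPM, and those of differentiating spermatogonia to 807 to 867 CPM, above the 490 to 644 CPM in all other kept barcodes. Early spermatocyte markers summed to 2180 to 2921 CPM, also above the 1194 to 1835 CPM in those barcodes. Without the 3 rule genes among them they summed to 1909 to 2620 CPM in preleptotene cells.

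Cell-to-cell spread was described for G2/M, histone, S-phase and ribosomal protein genes. At 5000 UMIs per cell, the median cell held 31 and 30 UMIs of the G2/M list (wild type) versus 36 and 33 (*Meioc*-null). The upper tail was longer in *Meioc*-null, where the 90th percentiles were 65.9 and 61.0 UMIs against 43.0 and 41.0 in wild type. Limits were also set on the sums per 10000 UMIs without thinning. Over the wild-type 95th percentile of this G2/M sum lay 27.5% and 22.2% of *Meioc*-null cells. Under the wild-type 5th percentile of this histone sum lay 20.2% and 9.94%. Both applied to 10.4% and 6.06% of *Meioc*-null cells and to 0 and 0.532% of wild-type cells. These limits were set after the values were seen. Doublet calls were 17.4% and 14.9% of the *Meioc*-null cells outside these limits and 9.55% and 4.20% of those within. The part of doublets was not tested beyond their removal, given below.

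Histone sums followed the batch. The median was 28.0 and 57.0 UMIs per cell (wild type) versus 26.0 and 49.0 (*Meioc*-null), with replicate 2 higher in each genotype. The sum of 52 genes of DNA replication and S phase was nearly level, at medians of 46.0, 44.0, 46.0 and 43.0 UMIs. Cells were split into tertiles by this sum per 10000 UMIs without thinning. In the highest tertile fell 35.2% and 24.7% of wild-type and 41.1% and 25.2% of *Meioc*-null cells. Ribosomal protein genes took a median of 781.5, 891.0, 690.5 and 823.0 UMIs per cell.

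**Figure D2:**
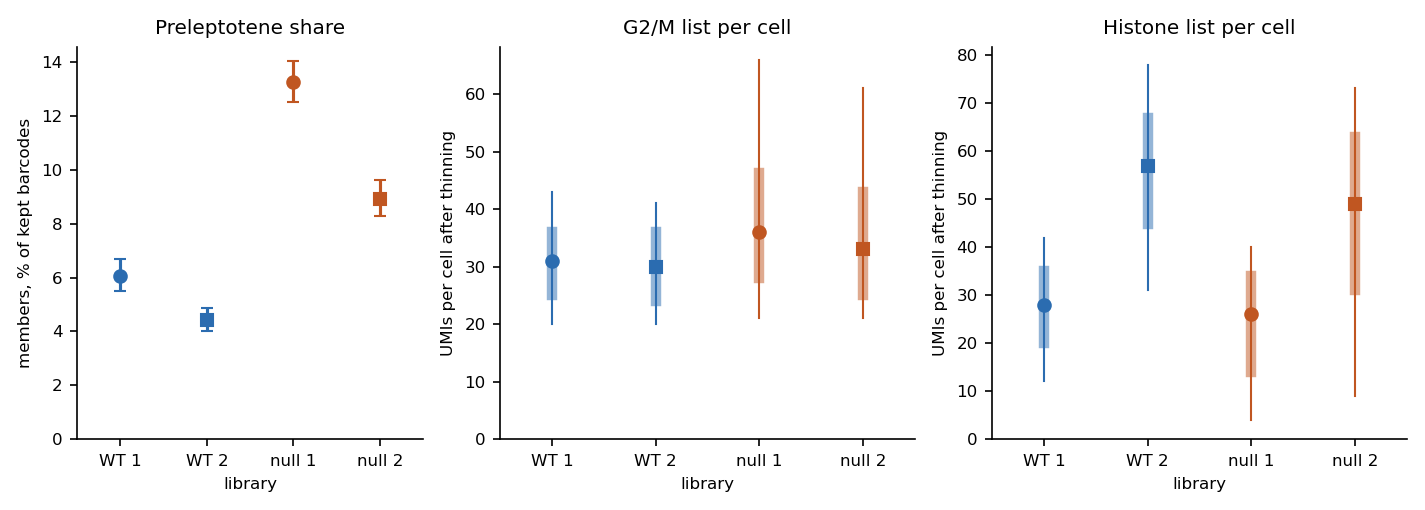
Left, preleptotene cells as a percentage of kept barcodes in each library with 95% exact binomial intervals. Middle and right, UMIs per cell of the G2/M and histone lists after thinning to 5000 UMIs, with the median (symbol), middle 50% (thick bar) and 10th to 90th percentiles (line). The G2/M lines reach 65.9 and 61.0 UMIs in Meioc-null and 43.0 and 41.0 in wild type, and the histone medians are higher in replicate 2 of each genotype.

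The genotype comparison summed the counts of preleptotene cells per library. Of 6195 genes tested, 1045 (16.9%) passed the threshold (quasi-likelihood test of edgeR, p adjusted by Benjamini-Hochberg under 0.05 and an absolute log2 fold change above 0.1). Wild type was higher for 379 (6.12%) and *Meioc*-null for 666 (10.8%). The 7 rule genes were left out. Fold changes are wild type over *Meioc*-null, so negative values are higher in *Meioc*-null. The genotypes' library values did not overlap for 3301 genes (53.3%). With littermate pairs as a block, 2267 genes passed, 1084 of them higher in wild type, 1183 in *Meioc*-null, and these held all 1045. Without wild type replicate 1 or *Meioc*-null replicate 1, 686 and 641 genes passed. A sum per library does not separate a level per cell from the mix of cells inside the gates. A gene was tested if 25% or more of the cells of 1 genotype held a UMI of it. Some called genes reached this limit only in the genotype where they are higher. In wild type these included *Figla*, *Zfp541*, *Pparg*, *Sap25*, *Psma8* and *Hspa2*, and in *Meioc*-null *Cdca5*, *Eno1*, *Mlh3* and *Bbc3*. They stay in the list counts, and their changes are descriptions. The shares of 6.12% and 10.8% are the background for the list counts below. For list counts with the littermate block the background is 1084 and 1183 of 6195 genes.

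**Figure D3:**
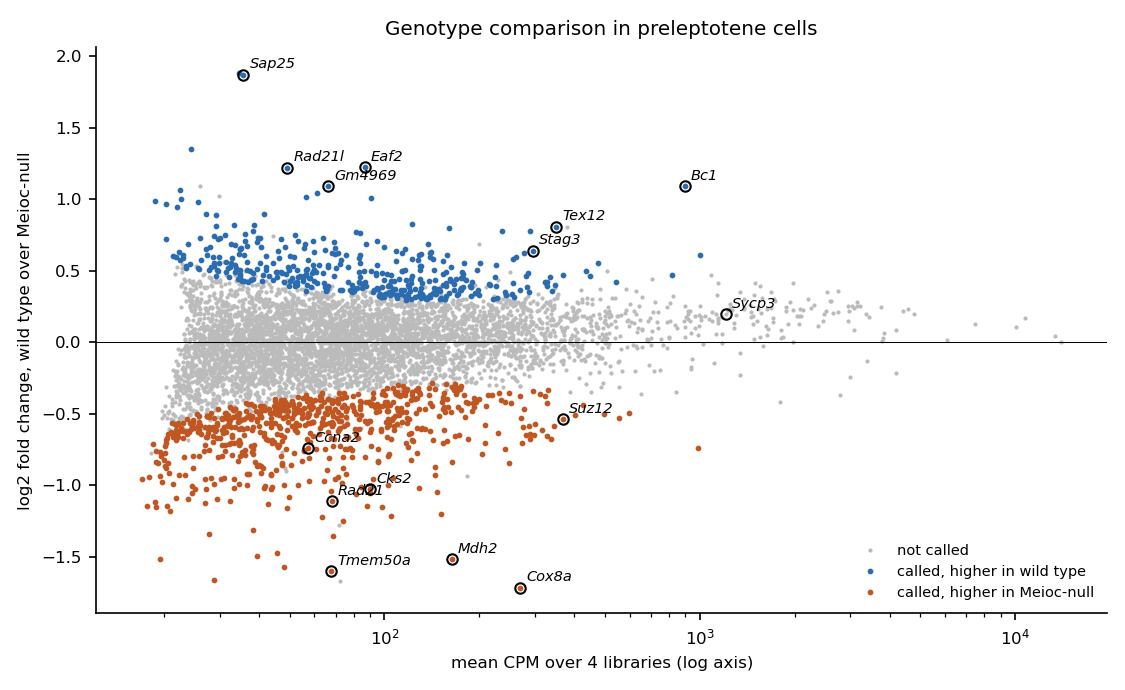
Log2 fold change (wild type over Meioc-null) against mean CPM over the 4 libraries (log axis) for the 6195 genes tested in preleptotene cells, with called genes in blue or orange and some named genes circled. Of the 1045 called genes, 379 lie above 0 and 666 below.

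Meiotic entry genes came first. *Gm4969* (ENSMUSG00000085601, chromosome 7, 19099046 to 19118368) stood at 80.4 and 97.4 CPM (wild type) versus 40.6 and 45.9 CPM (*Meioc*-null). Its means were 88.9 ± 12.01 and 43.2 ± 3.75 CPM (SD, n = 2), a log2 fold change of 1.09 (SE 0.14, edgeR adjusted p = 0.000313). *Sohlh1*, a regulator of spermatogonial differentiation, was higher in *Meioc*-null (log2 fold change -0.39, edgeR adjusted p = 0.0325). *Pparg* was higher in wild type (0.82) but under the 25% limit in *Meioc*-null cells. The limit thus admitted *Pparg* only through wild type, where it is high, and its change is a description. Of the 11 tested genes of the list of entry regulators and MEIOC partners, 2 were higher in wild type, 1 in *Meioc*-null and 8 did not pass, and the list's median was 0.05 against 0.00 for all genes. *Ythdc2* stood at 193 and 205 CPM (wild type) versus 209 and 203 CPM (*Meioc*-null), with a log2 fold change of 0.00 (SE 0.10). *Rbm46* gave 0.11 (SE 0.10) and *Dmrt1*, a repressor of meiotic entry, 0.03 (SE 0.09). None of these 3 passed the test.

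Of 19 tested cohesin genes, 2 were higher in wild type, 4 in *Meioc*-null and 13 did not pass, with a median of 0.02. *Rad21* (chromosome 15, 51962240 to 51991747), the kleisin subunit of mitotic cohesin, stood at 41.5 and 42.4 CPM (wild type) versus 103 and 85.0 CPM (*Meioc*-null), which were 2.16-fold higher (log2 fold change -1.11, SE 0.12, edgeR adjusted p = 9.07e-05). Its meiotic paralog *Rad21l* (chromosome 2, 151645404 to 151668533) stood at 59.8 and 76.5 CPM versus 29.5 and 31.2 CPM and was 2.33-fold higher in wild type (adjusted p = 0.000216). *Stag3* (chromosome 5, 138280240 to 138312393), the meiotic STAG subunit, stood at 358 and 351 CPM (wild type) versus 238 and 232 CPM (*Meioc*-null) (log2 fold change 0.64, SE 0.10, adjusted p = 0.00114). *Cdca5* (-1.15), which keeps cohesin on chromosomes in mitosis, was higher in *Meioc*-null, as were *Wapl* and *Pds5b*. DESeq2 kept *Rad21* and *Cdca5* but called neither *Wapl* nor *Pds5b*. With the littermate block 5 cohesin genes were higher in wild type, versus 7 in *Meioc*-null. The meiotic cohesin genes *Rec8* (-0.27, adjusted p = 0.138) and *Smc1b* (0.21, adjusted p = 0.472) did not pass, though both did with the littermate block.

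Axis and synaptonemal complex genes were tested next, and 3 of 10 were higher in wild type, with a median log2 fold change of 0.32. *Tex12* (chromosome 9, 50556819 to 50561325), of the central element, stood at 429 and 453 CPM (wild type) versus 226 and 294 CPM (*Meioc*-null) (log2 fold change 0.81, SE 0.15, adjusted p = 0.00342). *Hormad2* (0.48) and *Syce2* (0.42, adjusted p = 0.0442 by edgeR) were the others, and *Syce2* lost its call whichever library was left out. *Sycp1* (1140 and 1545 CPM versus 1053 and 1325 CPM) and *Sycp3* (1197 and 1354 CPM versus 1078 and 1220 CPM) had overlapping libraries and did not pass. *Sycp2* (0.29, adjusted p = 0.126) and *Hormad1* (0.36, adjusted p = 0.134) missed the threshold as well. With the littermate block 9 of the 10 were higher in wild type, versus 1 in *Meioc*-null.

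Of the genes for double-strand breaks, 3 of 9 were higher in wild type, namely *Ccdc36* (0.66), *Mei4* (0.74) and *Mei1* (0.75). *Spo11*, which makes the breaks, was too sparse to be tested, at 7.20 and 6.06 CPM (wild type) versus 3.45 and 3.78 CPM (*Meioc*-null). All 3 called genes of the telomere and nuclear envelope list, *Terb1* (0.63), *Majin* (0.68) and *Terb2* (0.60), were higher in wild type, among 7 tested. They form the complex that tethers meiotic telomeres to the nuclear envelope. Of recombinase genes 1 of 13 was called, *Hsf2bp* (0.69, higher in wild type). Of crossover genes, *Prr19* (0.73) and *Ccnb1ip1* (0.46) were higher in wild type and the mismatch repair gene *Mlh3* (-0.72) in *Meioc*-null, among 13 tested. DESeq2 did not call *Ccnb1ip1* (adjusted p = 0.0734). The median log2 fold changes of these 4 lists lay between 0.13 and 0.33. With the littermate block 6 of 9 double-strand break genes, 7 of 13 recombinase genes and 4 of 13 crossover genes were higher in wild type, versus 0, 0 and 2 in *Meioc*-null.

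Genes of the piRNA pathway, which silences transposons in germ cells, were higher in wild type in 7 of 15 tested, with a median of 0.34. *Piwil2* stood at 101 and 95.1 CPM (wild type) versus 73.4 and 61.7 CPM (*Meioc*-null) (log2 fold change 0.59, adjusted p = 0.00312). *Tdrd1*, *Tdrkh* and *Gpat2* gave 0.65, 0.36 and 0.37. DESeq2 called 2 of the 15, and edgeR with the littermate block 11. Germline transcription factors were higher in wild type in 5 of 16 and in *Meioc*-null in 1, *Sohlh1*, while DESeq2 called 3, all higher in wild type. The list was led by *Figla* (52.2 and 55.7 CPM versus 11.4 and 19.3 CPM, log2 fold change 1.89), a factor known from oocytes. A UMI of *Figla* was in 42.2% and 45.7% of wild-type and 12.5% and 21.6% of *Meioc*-null cells. The 25% limit thus admitted it only through wild type, where it is high, and its change is a description. *Zfp541* (1.07), *Dmrtc2* (0.59) and *Taf9b* (0.45) followed, and *Zfp541* was likewise admitted only through wild type.

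A list of 20 repressor genes joined 8 that the study chose on these samples with further PRC1.6 subunits and deacetylases, so the chosen ones are no independent evidence of a direction. Of 19 tested, 5 were higher in *Meioc*-null and none in wild type, with a median of -0.02. All 5 were among the 8 chosen by the study, namely *Rad21*, *Sp3* (-1.04), *Hnrnpab* (-0.68), *Pbrm1* (-0.68) and *Suz12* (-0.54), the last a subunit of Polycomb repressive complex 2. *Mga*, of the PRC1.6 complex, stood at 135 and 144 CPM (wild type) versus 194 and 158 CPM (*Meioc*-null) (log2 fold change -0.28, SE 0.10, edgeR adjusted p = 0.0792, and 0.0044 with the littermate block). *Cbx1* gave -0.14 (adjusted p = 0.484). *E2f6* had a UMI in under 25% of cells and so was not tested. Its levels were 15.6 and 10.1 CPM (wild type) versus 25.8 and 17.2 CPM (*Meioc*-null). When genes in 10% of cells were admitted, *E2f6* gave -0.68 (SE 0.23, edgeR adjusted p = 0.0631), and with no such limit -0.71 (adjusted p = 0.00911).

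Genes of G2/M phase were higher in *Meioc*-null in 25 of 50 tested and in wild type in none, with a median of -0.36. *Nusap1* (54.9 and 54.1 CPM versus 117 and 110 CPM), a spindle protein gene, gave -1.01. *Cks2* (64.8 and 50.9 CPM versus 122 and 122 CPM) gave -1.03 and *Ube2c* (28.2 and 24.0 CPM versus 57.7 and 61.0 CPM) -1.14. *Ctcf*, which is in the list but is better known for chromatin loops, gave -0.84. *Cdk1* and *Ccnb2* moved the same way, as did *Ccna2* (44.4 and 39.3 CPM versus 75.9 and 69.1 CPM, log2 fold change -0.74, adjusted p = 0.00113). The CDK inhibitor gene *Cdkn2c* was higher in wild type (0.82). A limit to the wild-type range of G2/M and histone sums removes G2/M-high cells by construction. Within it, 9 of 48 tested G2/M genes were higher in *Meioc*-null and 3 in wild type. Over all 6225 genes tested there, 661 were higher in *Meioc*-null and 481 in wild type. *Cks2* gave 0.11 within this range (edgeR adjusted p = 0.619). *Gm4969* gave 1.602 and *Cox8a* -1.84 there.

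Of S-phase genes, 3 of 49 were higher in wild type (among them *Gins2* and *Cdc45*) and 4 in *Meioc*-null (*Cdca7*, *Usp1*, *Mcm6* and *Cdt1*), with a median of 0.05. These counts lie near the shares over all genes tested, 6.12% and 10.8%. DESeq2 called none of the S-phase genes in wild type and only *Cdca7* in *Meioc*-null, and with the littermate block 9 were higher in wild type, versus 4 in *Meioc*-null. None of 21 tested histone genes and none of 81 ribosomal protein genes passed by edgeR, at medians of 0.18 and 0.20, with 1 and 2 at an unadjusted p under 0.05. Over all 6195 genes tested, 1890 had such an unadjusted p. The histone median was 0.66 in the lowest tertile of the S-phase sum, -0.09 in the highest and -0.02 within the wild-type range. DESeq2 called 1 gene of each list, higher in *Meioc*-null. With the littermate block 11 histone genes were higher in wild type, versus 5 in *Meioc*-null, as were 59 ribosomal protein genes, versus 6 in *Meioc*-null. Many histone genes are near-identical copies whose reads may not be assignable to 1 gene. Of 6 tested DNA methylation genes 3 were higher in *Meioc*-null, *Tdg* (-0.87), *Dnmt3a* (-0.56) and *Uhrf2* (-0.50).

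The largest differences among genes with a mean of at least 50 CPM over the 4 libraries are given next. *Cox8a* (chromosome 19, 7215153 to 7217616), a subunit of cytochrome c oxidase, stood at 117 and 128 CPM (wild type) versus 373 and 458 CPM (*Meioc*-null). It was 3.29-fold higher in *Meioc*-null (log2 fold change -1.72, SE 0.14, edgeR adjusted p = 1.55e-05). *Cox7b* (-1.25) of the same enzyme, the malate dehydrogenase gene *Mdh2* (-1.52) and *Tfam* (-1.35), which packages mitochondrial DNA, were also higher in *Meioc*-null. Of the cytochrome c oxidase list, 2 of 12 were higher in *Meioc*-null and 1, *Cox6b2*, in wild type, with a median of 0.10. *Cox6b2* (0.52, adjusted p = 0.0261 by edgeR) lost its call with DESeq2, in the lowest and highest tertiles of the S-phase sum, within the wild-type range, and without replicate 1 of either genotype. The other genes with the most negative changes above that mean were *Tmem50a* (-1.60), *Calu* (-1.22), the deubiquitinase gene *Mindy2* (-1.21), the cold-induced *Rbm3* (-1.20), *Cmas* (-1.15), *Ywhah* (-1.14), *Rad21* (-1.11, given above) and *Ptp4a3* (-1.06).

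Among genes higher in wild type, *Eaf2* (chromosome 16, 36792884 to 36875003), an elongation factor partner gene, had the largest change among those with a mean of at least 50 CPM over the 4 libraries. It stood at 118 and 122 CPM versus 53.2 and 53.1 CPM (log2 fold change 1.22, SE 0.11). *Bc1*, a short RNA of RNA polymerase III, gave 1.09 at 1417 and 997 CPM versus 618 and 549 CPM. *Ocel1* (1.04), *Mpv17l2* (1.015), *Dnpep* (1.01), the centromere gene *Cenpq* (0.83), AC149090.1 (0.80), *Mlf1* (0.78), the chaperone gene *Dnajb11* (0.775) and *Ormdl2* (0.77) followed. *Gm4969* (1.09) and *Tex12* (0.81), given above, also belong to these genes. *Sap25*, of a Sin3 complex, lay under that mean with a larger change. It was among the genes with the highest ratio to other barcodes and stood at 59.0 and 52.3 CPM (wild type) versus 16.0 and 15.5 CPM (*Meioc*-null) (1.87). A UMI of *Sap25* was in 46.6% and 44.9% of wild-type and 17.1% and 18.2% of *Meioc*-null cells. The 25% limit and the ratio thus admitted it only through wild type, where it is high, and its change is a description. *Hspa2* was 38.7 and 31.0 CPM (wild type) versus 15.5 and 12.6 CPM (*Meioc*-null), and every pup carried 1 altered *Hspa2* allele.

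**Figure D4:**
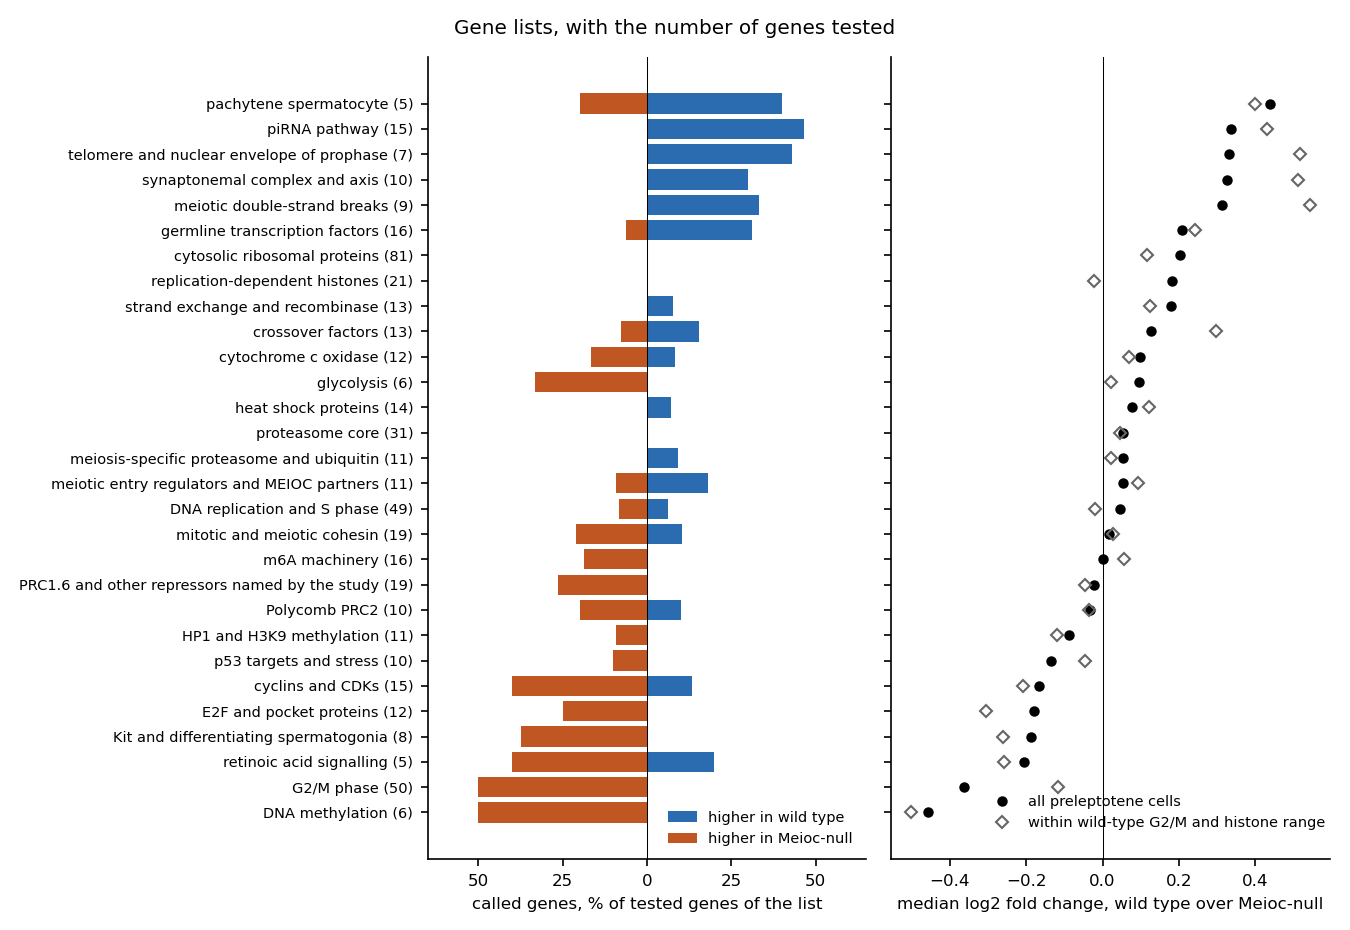
Left, the percentage of tested genes of each list called higher in wild type (blue, right) or in Meioc-null (orange, left). Right, the median log2 fold change of the list in all preleptotene cells (filled) and within the wild-type range of G2/M and histone sums (open). The G2/M list has 25 of 50 genes higher in Meioc-null and a median of -0.36, and the piRNA list has 7 of 15 higher in wild type.

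Of the remaining lists, retinoic acid signalling had 1 of 5 higher in wild type (*Aldh1a2*) and 2 in *Meioc*-null (*Crabp1* and *Rarg*), and the list of *Kit* and differentiating spermatogonia had 3 of 8 higher in *Meioc*-null. Cyclins and CDKs had 2 of 15 higher in wild type, versus 6 in *Meioc*-null, and E2F and pocket protein genes 3 of 12 in *Meioc*-null (*Lin54*, *Rb1* and *Mybl2*). Polycomb PRC2 had 1 of 10 (*Jarid2*) in wild type and 2 in *Meioc*-null, HP1 and H3K9 methylation 1 of 11 (*Atf7ip*) in *Meioc*-null and m6A machinery 3 of 16 (*Cbll1*, *Virma* and *Igf2bp1*) in *Meioc*-null. Of these DESeq2 called *Aldh1a2* but neither *Crabp1* (adjusted p = 0.148) nor *Rarg* (adjusted p = 0.129), 1 Polycomb PRC2 gene in *Meioc*-null but not *Jarid2* (adjusted p = 0.102), and *Lin54* and *Rb1* but not *Mybl2*. DESeq2 called none of the m6A genes and none of the list of *Kit* and differentiating spermatogonia, and *Virma* and *Igf2bp1* lost their calls whichever library was left out. Meiosis-specific proteasome genes had 1 of 11 (*Psma8*) and heat shock genes 1 of 14 (*Hspa2*) in wild type. The 25% limit admitted both genes only through wild type, where they are high. The proteasome core had none of 31 by edgeR (5 at an unadjusted p under 0.05) or by DESeq2. Over all 6195 genes tested, 1890 had such an unadjusted p by edgeR. With the littermate block 5 proteasome core genes (*Psmb4*, *Psmb7*, *Psma5*, *Psmc4* and *Psmd8*) were higher in wild type, versus 1 (*Psmd3*) in *Meioc*-null. Glycolysis had 2 of 6 (*Pgam1* and *Eno1*, both with processed copies in the genome) and p53 targets 1 of 10 (*Bbc3*, not called by DESeq2, adjusted p = 0.121) in *Meioc*-null. Pachytene markers had 2 of 5 in wild type (*Hspa2* and *Tesmin*) and 1 in *Meioc*-null (*Mns1*, not called by DESeq2), and early spermatocyte markers 1 of 4 in wild type (*Psma8*). The lists of undifferentiated spermatogonia, Sertoli cells and endothelium had 1, 3 and 1 genes tested and none called by edgeR (0, 1 and 1 at an unadjusted p under 0.05) or by DESeq2. With the littermate block 1 Sertoli gene (*Ctsl*) and 1 endothelium gene (*Egfl7*) were higher in wild type, and the part of such cells in the results was not tested. The Leydig, peritubular and macrophage lists had no gene tested.

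Values were also taken by position in S phase. In the lowest tertile of the S-phase sum *Gm4969* stood at 66.6 and 80.7 CPM (wild type) versus 42.6 and 54.2 CPM (*Meioc*-null) (log2 fold change 0.67, edgeR adjusted p = 0.0381). In the highest tertile it stood at 84.0 and 116 CPM versus 35.3 and 33.2 CPM (1.57, adjusted p = 3.49e-06). *Cks2* went the other way, with 70.9 and 59.7 CPM versus 188 and 177 CPM in the lowest tertile (-1.44) and 59.1 and 44.3 CPM versus 75.5 and 57.0 CPM in the highest (-0.31, adjusted p = 0.247). *Cox8a* gave -1.53 and -1.74. The difference between tertiles was not tested.

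Preleptotene cells were then compared with *Stra8*-positive cells whose *Meioc* was under the gate, 106 and 134 (wild type) versus 206 and 203 (*Meioc*-null). Their median depths were 10470.5 and 7713.5 versus 9758.5 and 9745 UMIs. With doublets removed, 90 and 120 versus 154 and 174 cells were left. Sertoli markers summed to 114 to 269 CPM and peritubular markers to 42.0 to 564 CPM. The part of depth, somatic RNA and doublets beyond their removal, given below, was not tested. In those cells no gene passed the genotype test by edgeR (0% of 5335 tested) without the littermate block, with 270 at an unadjusted p under 0.05. With the block, chosen after seeing the data, 180 passed, 80 higher in wild type, versus 100 in *Meioc*-null. The set by genotype term, which tests whether the genotype effect differs between the sets, passed for 0 of 6293 genes (0%), with 274 at an unadjusted p under 0.05. Without wild type replicate 1 it passed for 64 genes, and without wild type replicate 2 and *Meioc*-null replicate 2 for 7 and 8. *Gm4969* stood at 48.6 and 33.1 CPM (wild type) versus 20.4 and 21.5 CPM (*Meioc*-null) in these cells, and its term was 0.15 (SE 0.29). *Cox8a* stood at 362 and 620 CPM versus 526 and 758 CPM, higher in *Meioc*-null within both littermate pairs although the genotypes overlapped (log2 fold change -0.39, SE 0.093, edgeR adjusted p = 0.00922 with the block), with a term of -1.29 (SE 0.22, adjusted p = 0.119) that passed in 3 of the 4 fits without 1 library, all but that without *Meioc*-null replicate 1, and ranged from -1.64 to -0.86 over 7 alternatives. *Rad21* stood at 105 and 123 CPM versus 134 and 142 CPM, with a term of -0.82 (SE 0.21, adjusted p = 0.793) that passed in 1 of 7 alternatives, without wild type replicate 1. A term that misses the threshold does not show that the effects are alike.

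The second comparison was with *Stra8*- and *Meioc*-positive cells past the *Prdm9* gate, which passed the *Plk1* and *Ccnb1* gate too and numbered 298 and 330 (wild type) versus 733 and 567 (*Meioc*-null). Of *Stra8*- and *Meioc*-positive cells that met the *Plk1* and *Ccnb1* limit, 43.7% and 46.7% (wild type) and 42.2% and 46.8% (*Meioc*-null) lay past the *Prdm9* gate. In those cells 1512 of 5975 genes (25.3%) differed between genotypes, and 2851 with the littermate block. The set by genotype term passed for 594 of 6445 genes (9.22%), 378 above 0 and 216 below. It passed for 240 without wild type replicate 1, 339 without wild type replicate 2 and 1555 without *Meioc*-null replicate 1. Without *Meioc*-null replicate 2 it passed for 813 and the balance turned, with 383 above 0 and 430 below. A term above 0 means that the fold change of wild type over *Meioc*-null was larger, or less negative, in preleptotene cells. The sets are split on the sum of *Prdm9*, *Dmc1* and *Meiob*, meiotic genes of the rule itself. The part of that split in the terms of other genes was not tested.

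The genotype difference of *Gm4969* was larger in preleptotene cells than past the gate, where it stood at 101 and 114 CPM (wild type) versus 88.9 and 108 CPM (*Meioc*-null) (term 0.92, SE 0.12, edgeR adjusted p = 0.000234). *Tex12* (0.60), *Sycp1* (0.68), *Sycp3* (0.70) and *Hormad1* (0.61) had terms past the threshold, among 6 of the 10 axis and synaptonemal complex genes, all above 0. For *Sycp1*, *Sycp3* and *Hormad1* the fold changes had opposite signs in the sets, at 0.22, 0.20 and 0.36 in preleptotene cells and -0.48, -0.52 and -0.26 past the gate, and none of these 6 values passed its own test. *Majin* (term 0.89) and *Terb2* (term 0.69, not called without wild type replicate 1) gave 0.68 and 0.60 in preleptotene cells and -0.21 and -0.072 past the gate, where neither passed. Of the 51 tested G2/M genes 18 had a term above 0 and none below by edgeR. *Cenpa*, the centromeric histone gene, stood at 45.9 and 39.3 CPM (wild type) versus 91.5 and 81.1 CPM (*Meioc*-null) preleptotene cells and at 29.8 and 18.0 CPM versus 167 and 155 CPM past the gate (term 1.75, SE 0.16). Histone genes went the other way, with 12 of 23 terms below 0 and none above, and so did ribosomal protein genes, with 23 of 81 below and 3 above. *Cox8a* differed in both sets (-1.72 and -2.06, term 0.36, SE 0.10, edgeR adjusted p = 0.0336), and the term passed in 4 of 7 alternatives and in 2 of the 4 fits without 1 library.

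**Figure D5:**
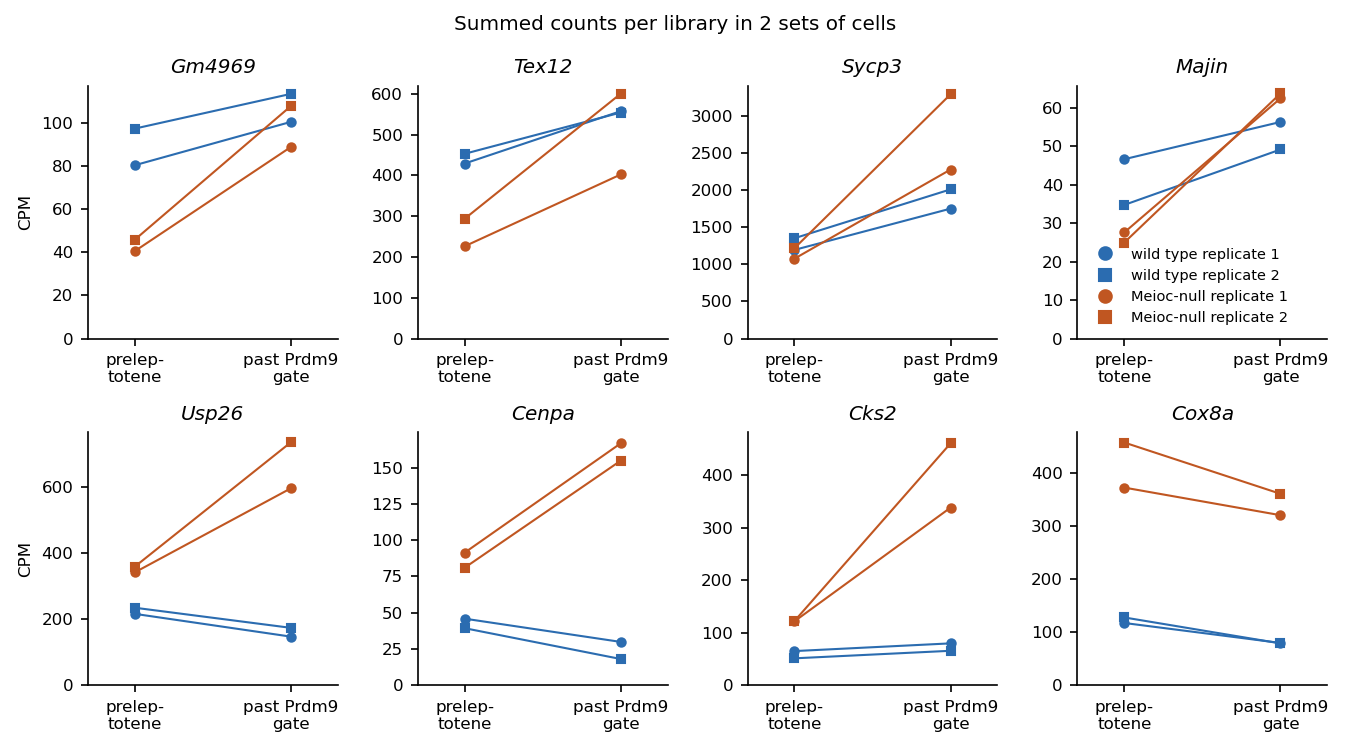
CPM of 8 genes in preleptotene cells (left of each panel) and in cells past the Prdm9 gate (right), with a line for each library. Circles are replicate 1 and squares replicate 2, blue wild type and orange Meioc-null. For Gm4969 the Meioc-null lines end at 88.9 and 108 CPM, near wild type, while for Cenpa they end at 167 and 155 CPM and the wild-type lines end at 29.8 and 18.0 CPM.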

How the data were processed

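Single-cell RNA sequencing of 4 testes gave 4 matrices of raw UMI counts per gene and barcode, which the authors made with Cell Ranger 4.0.0 (10x Genomics 3′ libraries, GRCm38) and deposited without normalization. Groups and replicate numbers came from the sample labels. The members and gene lists were chosen with earlier results of these data known. The study's doublet score was not rebuilt, and doublets were instead scored with Scrublet in scanpy 1.11.5 as an alternative (0.8% per 1000 barcodes).

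Counts were summed per library and cell set, and a gene was tested if 25% or more of the cells in 1 genotype held a UMI of it, by the quasi-likelihood test of edgeR 4.0.16 in R 4.3.3 (TMM, robust quasi-likelihood fit, genotype only), with DESeq2 1.42.0 as an alternative. Cells are not replicates, so n is 2 pups per genotype. The set by genotype terms had the library as a block. Calls needed a Benjamini-Hochberg adjusted p under 0.05 and an absolute log2 fold change above 0.1. Named genes were the 5 markers, the 12 largest and 12 smallest called changes with a mean of 50 CPM or more and the same direction in both batches, a fixed set of regulators, up to 4 called genes per list, the 15 with the highest ratio to other barcodes and, per set by genotype term, the 5 largest and 5 smallest. *Cdk1*, *Ccnb2*, *Mcm6*, *Cdt1*, *Wapl*, *Pds5b*, *Ctsl*, *Egfl7* and the 6 proteasome core genes were named as well after their values were seen.

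Per the labels, each batch of library preparation and sequencing held 1 littermate pair, so replicate numbers pair the samples, and deviations of same-numbered libraries from their genotype means correlated at r = 0.51 across 6195 genes. In simulated counts for the genotype comparison over 6195 genes, 100 of 100 changes of 1 and 71% of 100 changes of 0.5 on the log2 scale were recovered, and 15 unchanged genes were called. Simulated libraries were drawn independently with no batch effect, unlike the data, so this recovery need not hold for them. Gene coordinates came from GENCODE vM21, which matched 6194 of 6195 tested genes. Replicates of a genotype differed by more than sampling noise.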

Additional observations from a re-analysis of the deposited data

Results flagged for a closer look

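The genotype effect differed between preleptotene cells and cells past the *Prdm9* gate for 10 genes named by rule, by the set by genotype term on the log2 scale (edgeR, adjusted p under the threshold for each). The sets are split on genes of the gating rule, and the part of that split in the terms was not tested. Over 7 alternatives 8 of the 10 terms passed in each, and those of *Ccnb3* and *Hist1h2bb* in 6, not with doublets removed. The terms were above 0 for *Ccnb3* (1.97), *Cenpa* (1.75), *Pet2* (1.67), *Usp26* (1.42) and *Arl6ip1* (1.40). *Usp26* stood at 216 and 234 CPM (wild type) versus 341 and 358 CPM (*Meioc*-null) preleptotene cells, and past the gate at 147 and 173 CPM versus 596 and 735 CPM. *Pet2* was higher in wild type in preleptotene cells (0.43) and higher in *Meioc*-null past the gate (-1.26). *Arl6ip1* stood at 228 and 205 CPM versus 245 and 223 CPM in preleptotene cells and at 220 and 191 CPM versus 528 and 644 CPM past the gate. *Ccnb3*, a meiotic cyclin gene, gave 0.59 in preleptotene cells and -1.45 past the gate, the latter with adjusted p = 0.0857 by edgeR.

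The terms were below 0 for *Tmem256* (-1.11), *Hist1h2bb* (-0.997), *Selenom* (-0.94), *Hist1h1t* (-0.86) and *Hist1h4h* (-0.85). *Selenom* stood at 201 and 196 CPM (wild type) versus 151 and 163 CPM (*Meioc*-null) preleptotene cells, and at 143 and 112 CPM versus 57.5 and 46.0 CPM past the gate. *Hist1h2bb* and *Hist1h4h* have near-identical copies and differed between batches more than between genotypes in preleptotene cells.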

How the results depend on the processing

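The 1045 genes of the genotype comparison became 2267 with the littermate replicate block, 589 with DESeq2, 15 with a mitochondrial limit of 5% (18, 23, 87 and 38 cells left), 667 without the *Meioc* gate, 350 with *Prdm9*, *Dmc1* and *Meiob* under 2 per 10000 and 338 in the lowest tertile of the S-phase sum. Leaving out 1 library gave 641 to 970 genes, with 686 without wild type replicate 1 and 641 without *Meioc*-null replicate 1. A lone library is then assumed to vary like the other genotype. No called gene reversed and stayed called under any setting. With doublets removed 1113 genes passed and within the wild-type range of G2/M and histone sums, chosen after seeing the data, 1142. With the replicate block, chosen after seeing the data, the genotype test passed for 180 genes in *Meioc*-low cells (0 without it) and for 2851 past the *Prdm9* gate. The term against *Meioc*-low cells passed for 1 gene with doublets removed, 1 with *Stra8* at 20 or more, and 1 to 64 when 1 library was left out. The term against cells past the *Prdm9* gate passed for 362 genes without the *Meioc* gate and for 240 (without wild type replicate 1) to 1555 (without *Meioc*-null replicate 1), with 339 without wild type replicate 2. The preleptotene share of 5.24% in wild type became 2.39% with *Stra8* at 20 or more, 6.87% without the *Meioc* gate, 1.38% with the stricter *Prdm9* gate and 1.016% at the mitochondrial limit of 5%. The 11.1% in *Meioc*-null became 6.79%, 3.56% and 3.70% with the *Stra8*, *Prdm9* and mitochondrial limits. The stricter limits leave fewer cells. With *Stra8* at 20 or more 175, 172, 622 and 386 cells were left, and 1313 genes passed the genotype comparison. The cause of these shifts was not tested.

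Among named genes, the sign changed for *Cks2* at the mitochondrial limit of 5% (0.33) and within the wild-type range (0.11), and for *Ube2c* at that limit (0.057). *Ythdc2* gave -6.79e-05 with the block, -0.024 with no detection filter, -0.16 at the mitochondrial limit, -0.10 with *Stra8* at 20, -0.000728 without the *Meioc* gate, -0.031 without the *Plk1* and *Ccnb1* gate, -0.035 in the lowest tertile and -0.084 to 0.093 without 1 library. *Dmrt1* gave -0.000374 with no detection filter, -0.18 at the mitochondrial limit, -0.15 with *Stra8* at 20, -0.10 within the wild-type range and -0.015 to 0.070 without 1 library. *Hist1h1a* gave -0.16 at the mitochondrial limit, -0.057 in the highest tertile, -0.033 within the wild-type range and -0.10 to 0.44 without 1 library. Without 1 library *Sycp1* ranged from -0.062 to 0.47, *Hist1h2aa* from -0.071 to 0.79 and *Hist1h2ba* from -0.16 to 1.32. None of these reversed values passed the threshold. *Crabp1* also lost its call whichever library was left out.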
